A study of Mus musculus with 10 samples.

Results

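The genes described here are 43 mouse genes of fatty acid, sterol and sebum synthesis, picked by symbol from a list of the pathway that was drawn up with earlier results of these data known, among the 24358 gene symbols in the count files. They fall into 8 roles: de novo fatty acid synthesis, desaturases, elongases, wax, triglyceride and sterol esters, lipid droplets and sebocyte genes, mevalonate to farnesyl diphosphate, squalene to cholesterol, and regulators. RNA was sequenced from 10 full-thickness biopsies of dorsal skin of 5 mice on the C57Bl/6 strain, each of which bears a transgene for interleukin-17C (IL-17C) and has skin lesions of psoriasis type. The labels place mice 2465 and 2392 in the genotype IL-17C+KO, where the title of the series gives interleukin-6 (Il6) as the deleted gene, and mice 2275, 2296 and 2237 in the genotype IL-17C+. Lesional and uninvolved skin of each mouse gave 1 library each, so there were 2 lesional and 2 uninvolved IL-17C+KO libraries, and 3 lesional and 3 uninvolved IL-17C+ libraries. Mice were 10 or 14 weeks old when killed by ketamine and xylazine overdose, and the sources used here do not give the age of each mouse, so age and genotype cannot be told apart. They do not name the promoter or cell type that drives the transgene either, and skin without the transgene is not among the groups.

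Fatty acids are built from cytosolic acetyl-CoA, which ATP citrate lyase supplies, acetyl-CoA carboxylase commits and fatty acid synthase assembles into chains that elongases lengthen and desaturases give double bonds. Sterols come from the same acetyl-CoA through mevalonate, farnesyl diphosphate and squalene, and the membrane-bound factors SREBP-1 and SREBP-2, which Insig proteins hold back when sterols are plentiful, switch on many genes of both routes. In skin the sebaceous gland turns these lipids into sebum, a mixture rich in wax esters and triglycerides, the epidermis uses them for its barrier, and the fat layer of full-thickness skin uses many of the same enzymes.

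The promoters of the sterol genes shared short motifs. A window of 300 bases, from 250 before to 50 after the start, was found in RefSeq (GRCm38.p6) for 34 of the 43 genes and searched on both strands for CCAAT (the NF-Y box), GGGCGG (the Sp1 box) and TCACNCCAC (a sterol regulatory element core). CCAAT stood in 76.5% of the 34 windows and in 12 of the 13 windows of the mevalonate and squalene genes (92.3%), against 37.9% of 27025 windows in the table and 38.1% of the 12041 windows of genes tested here. GGGCGG stood in 70.6% of the 34 windows and 92.3% of the 13, against 35.9% of all windows and 59.4% of those of tested genes. TCACNCCAC was found in 1 window, that of Hmgcs1, or 2.94% of the 34, against 1.22% of all windows. The 60-base stretches below show where these letters lie in 4 sterol genes and in 4 fatty acid or droplet genes whose values are described later. Capitals mark CCAAT or its reverse complement ATTGG and, in Hmgcs1, also the sterol element. In Fasn a CCAAT and an ATTGG overlap.
Hmgcs1 (chr13:119690168-119690227, plus strand): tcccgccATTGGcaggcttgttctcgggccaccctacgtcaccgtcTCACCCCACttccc
Idi1 (chr13:8885546-8885605, plus strand): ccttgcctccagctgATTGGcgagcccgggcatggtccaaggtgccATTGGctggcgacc
Msmo1 (chr8:64733622-64733681, minus strand): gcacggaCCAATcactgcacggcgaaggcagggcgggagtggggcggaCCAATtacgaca
Hsd17b7 (chr1:169969246-169969305, minus strand): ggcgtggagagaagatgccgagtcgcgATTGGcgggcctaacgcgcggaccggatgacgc
Fasn (chr11:120824586-120824645, minus strand): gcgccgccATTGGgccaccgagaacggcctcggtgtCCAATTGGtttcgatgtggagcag
Thrsp (chr7:97417584-97417643, minus strand): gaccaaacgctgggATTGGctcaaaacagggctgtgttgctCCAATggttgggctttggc
Elovl5 (chr9:77917294-77917353, plus strand): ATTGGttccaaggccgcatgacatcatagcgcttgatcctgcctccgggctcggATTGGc
Plin5 (chr17:56117578-56117637, minus strand): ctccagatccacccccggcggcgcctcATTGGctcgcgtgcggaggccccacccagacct
These matches describe letters and are not measured binding sites. The RefSeq starts differ from the gene bounds of GENCODE M21 for some genes. By those bounds the stretches of Thrsp, Idi1 and Msmo1 lie inside the gene, and that of Plin5 reaches into it. For the 7 genes of the 43 with more than 1 window, the first listed was used.

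The libraries held 21056850 to 31072491 counts, of which the 43 genes took 0.641 to 1.955%. Il6, the gene named as deleted, had more counts under the IL-17C+KO label. It had 300 and 315 counts in lesional and 55 and 71 in uninvolved libraries labelled IL-17C+KO. In libraries labelled IL-17C+ it had 18, 69 and 26 in lesional and 4, 6 and 9 in uninvolved skin. Counts per gene do not show which part of Il6 was read, so they do not settle the labels. Every direction between genotypes below therefore rests on the labels. Values for 1 gene across libraries are CPM (counts scaled to a common library total) adjusted by the trimmed mean of M-values (TMM), always listed for mice 2465 and 2392 (IL-17C+KO) and for mice 2275, 2296 and 2237 (IL-17C+) in this order. Il17c had 10881 and 2347 CPM in lesional and 535 and 1901 CPM in uninvolved IL-17C+KO skin. In IL-17C+ mice it had 10855, 12470 and 10596 CPM in lesional and 1416, 5396 and 15175 CPM in uninvolved skin. Its level thus varied between the libraries compared, and its part in the results was not tested. Levels are compared between genes only by the deposited FPKM, which is scaled to transcript length. In bulk skin, fewer cells of a type and less RNA per cell cannot be told apart.

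All 43 genes were read in all 10 libraries and passed the filter on low counts in every comparison. By FPKM the highest was the desaturase Scd1, with a mean of 754.7 and a range of 219.7 to 1351 over the libraries, followed by Mgst1 (437.5), Msmo1 (228.5), Fdps (204.1), Plin2 (189.1) and Dgat2 (174.6). A mean FPKM over 100 was found for 12 genes, from the fatty acid, sterol, ester and droplet roles alike. The 4 genes under 10 were Fads1 (8.575), Plin5 (4.464), the sebaceous melanocortin receptor Mc5r (3.322) and Fads2 (3.311). The wax synthase Awat1, which is known from the sebaceous gland, had a mean FPKM of 88.6.

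**Figure D1:**
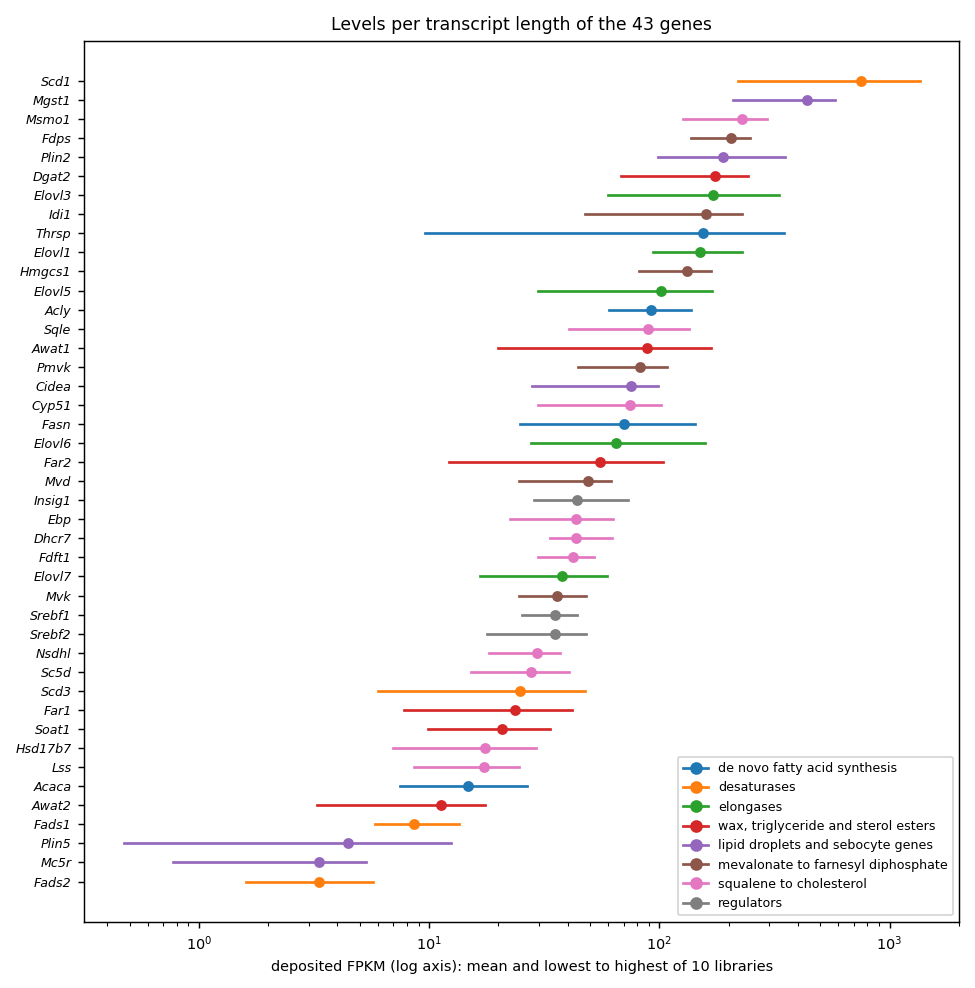
Deposited FPKM of the 43 genes (rows, ordered by mean) on a log axis, where the point is the mean over 10 libraries, the line runs from the lowest to the highest library and the colour gives the role. Scd1 is highest with a mean of 754.7, and Fads1, Plin5, Mc5r and Fads2 lie under 10.

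Lesional skin was first set against uninvolved skin from the same animals, to see what the lesions change. Across all 5 mice, none of the 43 genes passed a false discovery rate of 0.05 over all genes (edgeR's quasi-likelihood test with the mouse as a block), where 8 of 16083 genes did (0.0497%). The smallest adjusted p of the 43 was 0.126, for Plin5. At an unadjusted p under 0.05, 7 of the 43 genes were lower in lesional skin (16.3%; all genes, 11.5%) and 1 was higher (2.33%; all genes, 10.1%). The 7 were Thrsp, Scd3, Awat2, Dgat2, Far2, Cidea and Plin5, and the 1 was Hsd17b7. The median log2 change of the 43 genes was -0.15, against -0.01 over all genes tested, and 62.8% of the 43 had a negative value, against 50.6% of all genes. DESeq2 called 3 of the 43 (Plin5, Scd3 and Thrsp, all lower), a smaller share than its 12.7% of all genes, and limma-voom called 0 (all genes, 0.0249%).

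The sign of the change was not the same in every role. All 4 genes of de novo synthesis and all 5 of the droplet and sebocyte role had negative log2 changes, as did 4 of 5 elongases and 4 of 6 ester genes, with medians of -0.28, -0.46, -0.39 and -0.62 in this order. Of the 6 mevalonate genes 3 were negative (median -0.01), of the 10 squalene to cholesterol genes 4 (median 0.08), of the 4 desaturases 2 (median -0.11) and of the 3 regulators 1 (median 0.01). No difference between roles was tested.

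**Figure D2:**
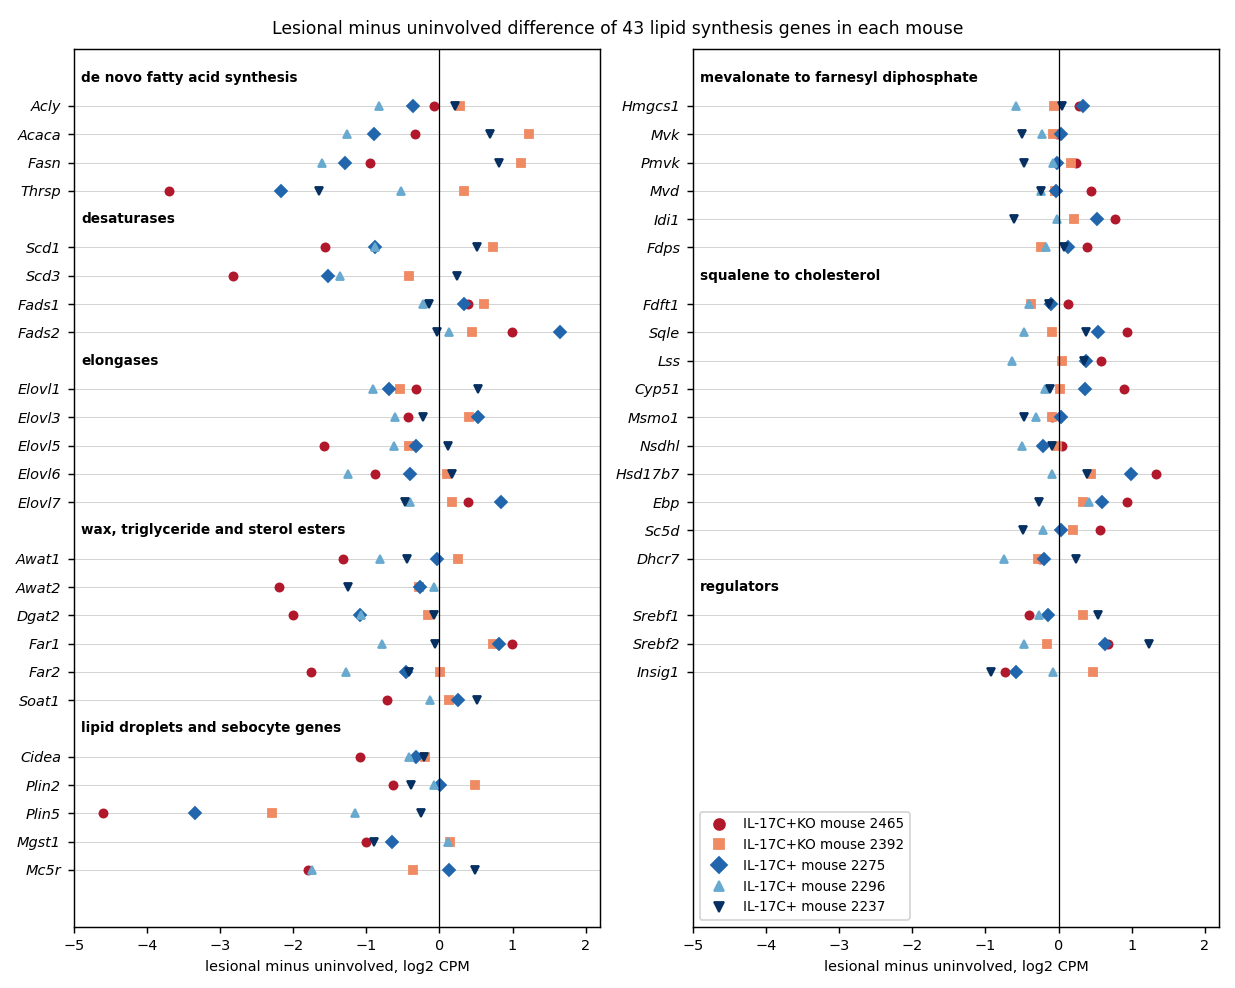
Lesional minus uninvolved difference in log2 CPM (horizontal axis) for each of the 43 genes (rows, grouped by role), with 1 symbol per mouse, red shades for IL-17C+KO and blue shades for IL-17C+. Plin5 lies left of 0 in all 5 mice, and mouse 2296 lies left of 0 for 40 of 43 genes.

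Mice differed in how many of the 43 genes were lower in lesional skin. In IL-17C+KO mice 25 (mouse 2465) and 18 (mouse 2392) were lower, against 23, 40 and 25 in the 3 IL-17C+ mice. Over all genes these shares were 49.9%, 51.2%, 50.2%, 51.5% and 50.9% for mice 2465, 2392, 2275, 2296 and 2237. Mouse 2296 thus stood apart by count, with 40 of 43 genes lower, of which 8 were lower by at least 1 log2 unit (18.6%; all genes, 8.34%). Mouse 2465 had the most genes lower by at least 1 log2 unit, 12 of 43 (27.9%; all genes, 16.7%). The count was 1 in mouse 2392 (all genes, 7.11%), 5 in mouse 2275 (10.9%) and 2 in mouse 2237 (10.3%). The all-gene share of mouse 2465 was also the highest of the 5 mice. The lesional library of mouse 2465 held the lowest CPM of 21 of the 43 genes, and its uninvolved library that of 14. The same counts were not made over all genes, so they cannot tell these genes from the libraries as a whole. By TMM-scaled CPM 4 genes were lower in all 5 mice, Awat2, Cidea, Dgat2 and Plin5 (9.3%, all genes 9.73%). Higher in all 5 were 0 (all genes, 9.13%), so the count in 1 direction was close to that of all genes. For Dgat2 and Cidea the direction in all 5 mice depended on the scaling, as given below.

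De novo fatty acid synthesis had opposite signs in different mice. Fasn, the fatty acid synthase (chr11:120805846-120824547 in GENCODE M21, GRCm38), had 284 and 1514 CPM in lesional and 551 and 697 CPM in uninvolved IL-17C+KO skin, and 672, 288 and 836 CPM in lesional and 1639, 878 and 477 CPM in uninvolved IL-17C+ skin. It was lower in lesional skin of mice 2465, 2275 and 2296 and higher in mice 2392 and 2237, with a log2 change of -0.40 ± 0.48 (SE, 5 mice). Acaca, acetyl-CoA carboxylase, had 85.7 and 258 CPM in lesional and 108 and 110.3 CPM in uninvolved IL-17C+KO skin, and 130.2, 78.7 and 175 CPM in lesional and 241, 189 and 108 CPM in uninvolved IL-17C+ skin. The same 3 mice were lower and the same 2 higher for Acaca as for Fasn. Of the 50-base stretches of Acaca, 30.4% also occur in other annotated genes, chiefly Gm5182, so its counts are uncertain. Thrsp, a small protein that promotes lipid synthesis in fat and liver (chr7:97412938-97417730), had 8.69 and 94.2 CPM in lesional and 113 and 74.5 CPM in uninvolved IL-17C+KO skin. In IL-17C+ mice it had 74.9, 144 and 112 CPM in lesional and 336, 207 and 350.3 CPM in uninvolved skin. It was lower in 4 of 5 mice, with mouse 2392 as the exception, and its log2 change was -1.52 ± 0.57 (SE, 5 mice). The role's median difference was -0.64 and 0.73 log2 units in the IL-17C+KO mice and -1.09, -1.05 and 0.45 in the IL-17C+ mice.

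Among the desaturases, Scd3 was lower in 4 of 5 mice and Fads2 higher in 4 of 5, and neither passed over all genes. Scd1, which puts the first double bond into saturated chains and is known from the sebaceous gland (chr19:44394455-44407879), had 1107 and 6860.2 CPM in lesional and 3285 and 4117 CPM in uninvolved IL-17C+KO skin, and 3961, 2386 and 3929 CPM in lesional and 7276, 4392 and 2747 CPM in uninvolved IL-17C+ skin. Its lesional values were lower in mice 2465, 2275 and 2296 and higher in mice 2392 and 2237, as for Fasn. Scd3, a mouse desaturase of the same family and locus (chr19:44203269-44244016), had 21.4 and 102 CPM in lesional and 153 and 136 CPM in uninvolved IL-17C+KO skin, and 63.5, 48.4 and 62.0 CPM in lesional and 183, 124 and 52.5 CPM in uninvolved IL-17C+ skin. Its log2 change was -1.17 ± 0.43 (SE, 5 mice), with mouse 2237 as the exception. The 2 genes share part of their sequence, with 4.56% of the 50-base stretches of Scd1 and 6.57% of those of Scd3 found in other genes. Fads2, which starts the desaturation of polyunsaturated chains, had 7.54 and 3.62 CPM in lesional and 3.76 and 2.64 CPM in uninvolved IL-17C+KO skin, and 7.89, 3.45 and 7.04 CPM in lesional and 2.47, 3.16 and 7.18 CPM in uninvolved IL-17C+ skin (log2 change 0.64 ± 0.30, SE, 5 mice). Fads1, which acts after Fads2, had 47.6 and 35.8 CPM in lesional and 36.3 and 23.5 CPM in uninvolved IL-17C+KO skin, and 35.1, 22.8 and 29.6 CPM in lesional and 27.8, 26.5 and 32.8 CPM in uninvolved IL-17C+ skin. Its lesional values were higher in 3 of 5 mice, both IL-17C+KO mice among them.

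Among the elongases Elovl5 and Elovl6 had the smallest p-values. Elovl5, which lengthens polyunsaturated chains (chr9:77917364-77984519), had 83.6 and 225 CPM in lesional and 249 and 299.7 CPM in uninvolved IL-17C+KO skin, and 409, 267 and 295 CPM in lesional and 512, 409 and 273 CPM in uninvolved IL-17C+ skin. In 4 of 5 mice it was lower (log2 change -0.56 ± 0.26, SE, 5 mice). Elovl6, which lengthens saturated and monounsaturated chains, had 179 and 994 CPM in lesional and 328 and 923 CPM in uninvolved IL-17C+KO skin, and 286, 189 and 294 CPM in lesional and 378, 450.2 and 260.4 CPM in uninvolved IL-17C+ skin (log2 change -0.45 ± 0.26). Elovl3, an elongase known from sebaceous glands and hair follicles, had 109.5 and 608 CPM in lesional and 147 and 459 CPM in uninvolved IL-17C+KO skin, and 373, 291 and 283 CPM in lesional and 259.7, 441 and 329 CPM in uninvolved IL-17C+ skin. Lesional and uninvolved groups overlapped for Elovl6 and for Elovl3. The role's median difference was -0.43 and 0.11 log2 units in the IL-17C+KO mice and -0.32, -0.62 and 0.11 in the IL-17C+ mice.

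The ester genes had the lowest role median. Dgat2, which makes triglyceride from diglyceride, had 152 and 469 CPM in lesional and 605 and 524 CPM in uninvolved IL-17C+KO skin, and 273, 255 and 368 CPM in lesional and 580.4, 534 and 387 CPM in uninvolved IL-17C+ skin. By TMM-scaled CPM all 5 mice had it lower in lesional skin, with differences beyond -1 log2 unit in mice 2465, 2275 and 2296. The differences were -0.16 and -0.07 in mice 2392 and 2237, and the fitted log2 change was -0.87 ± 0.31 (SE, 5 mice). By deposited FPKM Dgat2 was higher in lesional skin of mice 2392 (209.1 against 205.0) and 2237 (170.5 against 156.9). Far2, which reduces fatty acyl-CoA to the alcohols of wax esters, had 42.3 and 360.2 CPM in lesional and 143 and 357 CPM in uninvolved IL-17C+KO skin, and 164, 124 and 135 CPM in lesional and 227, 301 and 180.0 CPM in uninvolved IL-17C+ skin. Its log2 change was -0.77 ± 0.28, and mouse 2392 had a difference of 0.01. Far1, the other fatty acyl-CoA reductase, had 77.9 and 132 CPM in lesional and 39.1 and 79.7 CPM in uninvolved IL-17C+KO skin, and 123, 118 and 132 CPM in lesional and 69.9, 203 and 137 CPM in uninvolved IL-17C+ skin. Far1 was thus higher in lesional skin of mice 2465, 2392 and 2275 and lower in the other 2, unlike Far2.

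Droplet and sebocyte genes included the smallest p-value of the 43 genes. Plin5, the lipid droplet coat protein of oxidative tissues such as muscle and heart (chr17:56111601-56117596), had 0.892 and 3.81 CPM in lesional and 23.6 and 18.9 CPM in uninvolved IL-17C+KO skin, and 2.45, 3.34 and 2.92 CPM in lesional and 25.6, 7.54 and 3.51 CPM in uninvolved IL-17C+ skin. It was lower in lesional skin of 5 of 5 mice, although mouse 2237 differed by only -0.26 log2 units. By TMM-scaled CPM lesional and uninvolved values did not overlap within either genotype. The lesional library of mouse 2296 and the uninvolved library of mouse 2237 both held 85 Plin5 counts, so the separation in IL-17C+ skin depends on the scaling. The log2 change was -2.33 ± 0.66 (SE, 5 mice; adjusted p = 0.126 with edgeR's quasi-likelihood test), and its adjusted p ran from 0.000324 with DESeq2 to 0.36 over the alternatives tried. Its lesional library of mouse 2465 held 20 counts. Cidea, which enlarges lipid droplets, had 29.2 and 104 CPM in lesional and 62.1 and 119 CPM in uninvolved IL-17C+KO skin, and 87.5, 75.1 and 71.6 CPM in lesional and 109, 100.1 and 82.5 CPM in uninvolved IL-17C+ skin. Its value was lower in 5 of 5 mice by TMM-scaled CPM, with a log2 change of -0.44 ± 0.18. Scaled by library totals alone, Cidea was slightly higher in lesional skin of mouse 2237. Plin2, the droplet coat protein found in most cells, had 180.4 and 652 CPM in lesional and 279.6 and 464 CPM in uninvolved IL-17C+KO skin, and 350.4, 325 and 310.3 CPM in lesional and 349, 342 and 406 CPM in uninvolved IL-17C+ skin. Mgst1, a microsomal glutathione transferase, had 168 and 473 CPM in lesional and 336 and 429 CPM in uninvolved IL-17C+KO skin, and 317, 421 and 255 CPM in lesional and 494, 388 and 472 CPM in uninvolved IL-17C+ skin. Plin2 and Mgst1 had no common direction over the 5 mice.

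**Figure D3:**
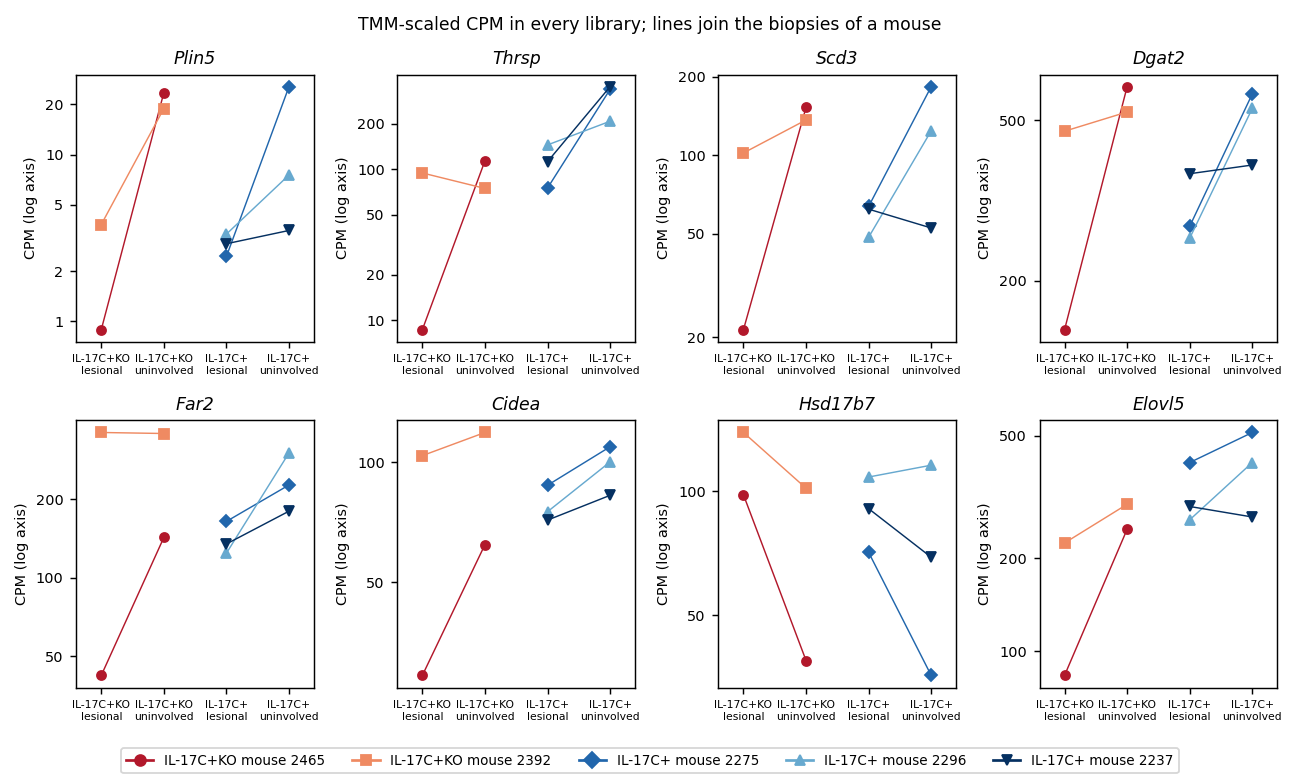
CPM on log axes of 8 of the genes in each library, lesional left of uninvolved, for IL-17C+KO and IL-17C+ mice, with a line joining the 2 biopsies of a mouse. By this TMM-scaled CPM, Plin5, Dgat2 and Cidea are lower in lesional skin of all 5 mice, and Hsd17b7 is higher in 4 of 5.

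The 6 mevalonate genes had log2 changes between -0.16 and 0.18. Mvk, mevalonate kinase, had 50.9 and 64.5 CPM in lesional and 51.5 and 67.7 CPM in uninvolved IL-17C+KO skin, and 44.5, 69.5 and 60.9 CPM in lesional and 43.6, 81.0 and 86.4 CPM in uninvolved IL-17C+ skin (log2 change -0.16 ± 0.15, SE, 5 mice). Idi1, the isopentenyl diphosphate isomerase, had 262 and 576 CPM in lesional and 153 and 498 CPM in uninvolved IL-17C+KO skin, and 489, 671 and 481 CPM in lesional and 340.5, 677 and 733 CPM in uninvolved IL-17C+ skin (log2 change 0.18 ± 0.24). Both changes were about the size of their standard errors or smaller. Fdps, farnesyl diphosphate synthase, had 230.5 and 264 CPM in lesional and 175 and 311 CPM in uninvolved IL-17C+KO skin, and 211, 273 and 265 CPM in lesional and 193, 309 and 251 CPM in uninvolved IL-17C+ skin. Pmvk, phosphomevalonate kinase, had 62.3 and 111 CPM in lesional and 53.0 and 98.6 CPM in uninvolved IL-17C+KO skin, and 75.7, 119 and 91.9 CPM in lesional and 77.1, 125 and 128 CPM in uninvolved IL-17C+ skin. Pmvk was higher in both IL-17C+KO mice and lower in all 3 IL-17C+ mice, by small amounts. By deposited FPKM it was higher in lesional skin of mouse 2275 too (72.5 against 66.4). Idi1 and Fdps share 25.3% and 26.2% of their 50-base stretches with other annotated genes, so their counts are uncertain.

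Among the squalene to cholesterol genes, Hsd17b7 had the smallest p. Hsd17b7, a sterol ketoreductase (chr1:169949535-169969241), had 98.1 and 139 CPM in lesional and 38.9 and 102 CPM in uninvolved IL-17C+KO skin, and 71.2, 108 and 90.8 CPM in lesional and 35.8, 116 and 69.2 CPM in uninvolved IL-17C+ skin. It was higher in lesional skin of 4 of 5 mice, with a difference of -0.10 log2 units in mouse 2296, and its log2 change was 0.61 ± 0.23 (SE, 5 mice). Ebp, the sterol isomerase, had 80.3 and 88.2 CPM in lesional and 41.8 and 69.7 CPM in uninvolved IL-17C+KO skin, and 70.9, 115 and 76.5 CPM in lesional and 47.2, 86.5 and 92.4 CPM in uninvolved IL-17C+ skin (log2 change 0.40 ± 0.20). It was higher in the 4 mice other than 2237. Sc5d, a sterol desaturase of the last steps, had 55.8 and 62.3 CPM in lesional and 37.7 and 54.2 CPM in uninvolved IL-17C+KO skin, and 46.6, 84.4 and 69.7 CPM in lesional and 45.4, 97.6 and 97.3 CPM in uninvolved IL-17C+ skin. Msmo1, the sterol oxidase that removes methyl groups, had 233 and 523 CPM in lesional and 249 and 556 CPM in uninvolved IL-17C+KO skin, and 412, 443 and 376 CPM in lesional and 403, 550.1 and 523 CPM in uninvolved IL-17C+ skin. Lesional values lay above uninvolved ones in IL-17C+KO mice for Ebp and Sc5d and overlapped with them in IL-17C+ mice, and for Msmo1 they overlapped in both genotypes. Of the regulators, Srebf2 (SREBP-2) had 209 and 191 CPM in lesional and 131 and 213 CPM in uninvolved IL-17C+KO skin, and 193, 155 and 221 CPM in lesional and 125, 215 and 93.4 CPM in uninvolved IL-17C+ skin (log2 change 0.38 ± 0.27). Insig1, which holds SREBPs in the endoplasmic reticulum, had 81.4 and 167 CPM in lesional and 136 and 120.2 CPM in uninvolved IL-17C+KO skin, and 93.8, 83.3 and 114 CPM in lesional and 140.3, 87.6 and 215 CPM in uninvolved IL-17C+ skin (log2 change -0.37 ± 0.23). Neither regulator had the same direction in all 5 mice.

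Of the 16 genes not given by library, 4 are described by their differences in the 5 mice. The wax synthase Awat2, named because it was lower in all 5 mice, differed by -2.19, -0.28, -0.26, -0.08 and -1.25 log2 units in mice 2465, 2392, 2275, 2296 and 2237. Awat1 had differences between -1.32 and 0.26, Mc5r between -1.80 and 0.48, and the long-chain elongase Elovl1 between -0.90 and 0.53. The other 12 (Acly, Elovl7, Soat1, Hmgcs1, Mvd, Fdft1, Sqle, Lss, Cyp51, Nsdhl, Dhcr7 and Srebf1) had differences between -0.83 (Acly, mouse 2296) and 0.93 (Sqle, mouse 2465) and fitted log2 changes between -0.25 and 0.26, and none had an unadjusted p under 0.05 in this comparison.

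Markers of other cell types differed along with these genes, and their part in the results was not tested. All 16 of 16 adipocyte markers had negative lesional changes (median log2 change -0.83) and their summed level was 1595 and 10566 CPM in lesional and 13406 and 8063 CPM in uninvolved IL-17C+KO skin, and 4259.7 to 5067 CPM in lesional and 7375 to 11664 CPM in uninvolved IL-17C+ skin. All 16 of 16 skeletal muscle markers were negative too (median -2.66), with sums of 1028 and 5988 CPM in lesional and 60824 and 36918 CPM in uninvolved IL-17C+KO skin, and 5091, 3699 and 8478 CPM in lesional and 43188, 15347 and 8055 CPM in uninvolved IL-17C+ skin. Mouse 2237 had the smallest difference in the muscle sum and also in Plin5. The 8 sebocyte markers outside the 43 genes, such as Krt79, had 4 positive and 4 negative changes (median 0.02), with sums of 1446 and 1794 CPM in lesional and 998 and 1978 CPM in uninvolved IL-17C+KO skin, and 1609 to 2149.9 CPM in lesional and 1173 to 1982 CPM in uninvolved IL-17C+ skin. The sums overlapped in both genotypes, but most of each sum was Krt79, so they say little of the other markers. In mouse 2465 Krt79 took 1069 of 1446 CPM in lesional and 580 of 998 CPM in uninvolved skin. Krt79 was higher in lesional skin of mice 2465, 2275 and 2237 and lower in mice 2392 and 2296. Acsbg1, another of the 8, was lower in mice 2465, 2392, 2275 and 2296 and slightly higher in mouse 2237. The 16 hair follicle markers of the growth phase summed to 2658 and 27.2 CPM in lesional and 42.2 and 57.9 CPM in uninvolved IL-17C+KO skin, and 1315 to 9671 CPM in lesional and 34.1 to 11605 CPM in uninvolved IL-17C+ skin. All 16 had positive lesional changes (median log2 change 1.46), although their sum was higher in lesional skin only of mice 2465 and 2275. Krt85 and Shh were at 0 counts in the lesional library of mouse 2392. The 15 macrophage and neutrophil markers tested had a median of 0.82 and the 13 keratinocyte markers tested a median of -0.45. No marker of the adipocyte, muscle or sebocyte lists was at 0 in any library.

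**Figure D4:**
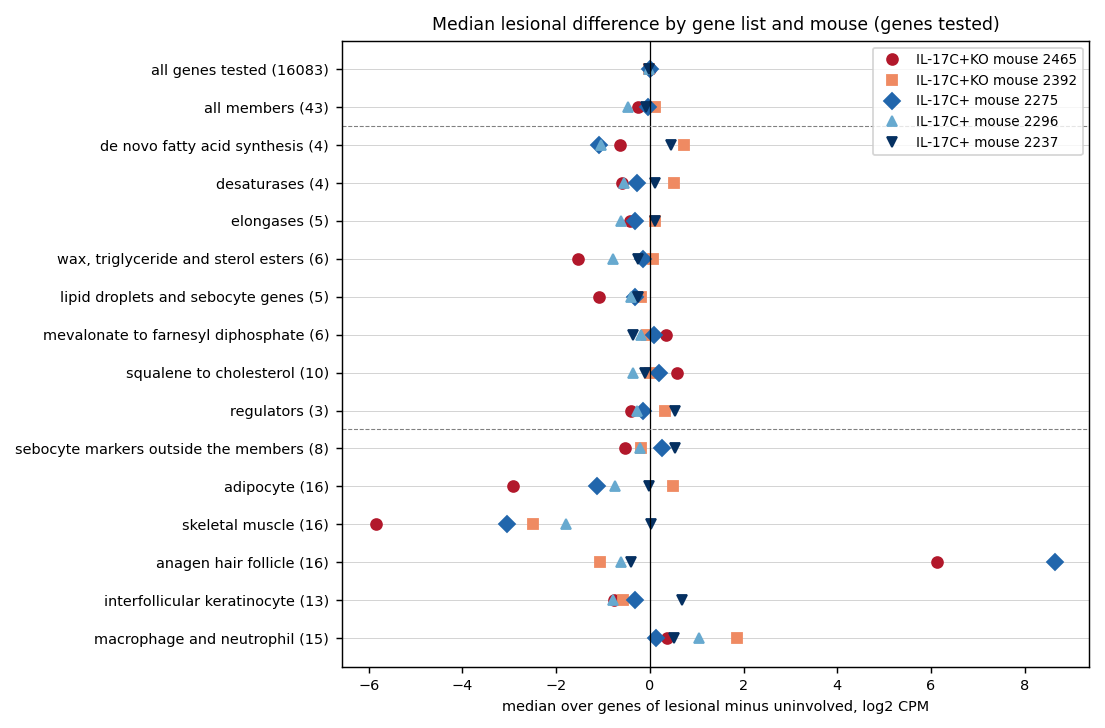
Median lesional minus uninvolved difference in log2 CPM of each role and marker list (rows) in each mouse, red shades for IL-17C+KO and blue shades for IL-17C+, with the number of genes tested in brackets. Skeletal muscle medians run from -5.85 in mouse 2465 to 0.03 in mouse 2237, and the mevalonate and squalene medians stay between -0.36 and 0.57.

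The next comparisons asked whether the lesional difference was present in each genotype and whether it differed between them. In IL-17C+KO mice 0 of 43 genes passed (all genes, 0.0124%), 2 were lower at an unadjusted p under 0.05 (Plin5 and Elovl5; all genes, 7.31%), and 0 were higher (all genes, 6.16%). DESeq2 called 1 (Plin5), below its 7.09% of all genes, and limma-voom 0 (all genes, 0.0124%). In IL-17C+ mice 0 of 43 genes passed (all genes, 0%), 0 had an unadjusted p under 0.05 (all genes, 6.41%), and DESeq2 (all genes, 1.54%) and limma-voom (all genes, 0%) called 0. For the 43 genes the median of the log2 changes was -0.04 in IL-17C+KO mice (all genes, 0.00) and -0.23 in IL-17C+ mice (all genes, -0.02). Lower in both IL-17C+KO mice were 11 of 43 genes (all genes, 34.5%), and higher in both were 11 (all genes, 33.3%). Lower in all 3 IL-17C+ mice were 12 genes (all genes, 13.7%), and higher in all 3 were 0 (all genes, 12.2%). These counts rest on TMM-scaled CPM. Of the 12 genes, Awat1, Dgat2, Fdft1, Mvd, Nsdhl and Pmvk were higher in lesional skin of at least 1 IL-17C+ mouse by deposited FPKM. The share of all genes was not counted by FPKM.

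For the difference between these changes, IL-17C+KO minus IL-17C+, 0 of 43 genes passed (all genes, 0%), 0 had an unadjusted p under 0.05 (all genes, 1.17%), and DESeq2 (all genes, 0.0373%) and limma-voom (all genes, 0%) called 0. Plin5 had a lesional log2 change of -3.45 ± 0.94 in the 2 IL-17C+KO mice and -1.58 ± 0.74 in the 3 IL-17C+ mice. The difference was -1.87 ± 1.16, and it was -0.73 without mouse 2465 and -3.15 without mouse 2392. The SE given here come from 1 fit of all 10 libraries with a shared estimate of the spread. Without mouse 2275 the Plin5 change in IL-17C+ mice was -0.72. Hsd17b7 had 0.89 ± 0.38 in IL-17C+KO mice and 0.43 ± 0.31 in IL-17C+ mice. Acaca had a difference of 0.95 ± 0.76 and Pmvk of 0.39 ± 0.35, with standard errors nearly as large as the differences. The Acaca difference ran from 0.16 without mouse 2392 to 1.72 without mouse 2465, and that of Pmvk was 0.25 without mouse 2237. All 6 mevalonate genes and 9 of 10 squalene to cholesterol genes had a positive difference (all genes, 50%), with medians of 0.28 and 0.28, against a median of 0.00 over all genes. By mouse, the median lesional difference of both roles in mouse 2392 (-0.06 and 0.00) lay within the range of the IL-17C+ mice, and in mouse 2465 (0.34 and 0.57) above it. The median over the 43 genes was 0.11, and it ran from -0.04 to 0.28 with single mice left out, so its sign rests on which mice are included.

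The genotype labels were set against each other inside each skin type, with 2 IL-17C+KO libraries against 3 IL-17C+ libraries. In lesional skin 0 of 43 genes passed (all genes, 0%), 0 had an unadjusted p under 0.05 (all genes, 7.3%), and DESeq2 (all genes, 1.38%) and limma-voom (all genes, 0%) called 0. The 2 IL-17C+KO libraries lay above all 3 IL-17C+ libraries for 1 gene, Fads1 (all genes, 11.7%), and below them for 1, Elovl5 (all genes, 13.3%). The log2 difference was 0.54 ± 0.25 for Fads1 and -1.05 ± 0.47 for Elovl5 (SE, 5 mice). Without mouse 2465 these were 0.29 and -0.53, and without mouse 2392 Elovl5 had -1.92. The CPM values of both are given above, and in uninvolved skin the genotypes overlapped for both genes. The median over the 43 genes was 0.03 (all genes, 0.01), and it ran from -0.55 without mouse 2392 to 0.36 with other mice left out. The 43 genes summed to 6139.7 CPM in mouse 2465 and 18890.1 CPM in mouse 2392, against 11810.4, 10062 and 12308 CPM in IL-17C+ lesional skin, so that the 3 IL-17C+ sums lay between the 2 IL-17C+KO sums.

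In uninvolved skin 0 of 43 genes passed (all genes, 0%), and DESeq2 (all genes, 0.0707%) and limma-voom (all genes, 0%) called 0. Thrsp was the 1 gene with an unadjusted p under 0.05 (lower; all genes, 1.82%). It was lower in both IL-17C+KO libraries (113 and 74.5 CPM) than in all 3 IL-17C+ libraries (336, 207 and 350.3 CPM), with a log2 difference of -1.66 ± 0.40 (SE, 5 mice; edgeR's quasi-likelihood adjusted p = 0.849). For 0 genes did both IL-17C+KO libraries lie above the IL-17C+ libraries (all genes, 10.4%) and for 1, Thrsp, below (all genes, 10.7%). Far1 had 39.1 and 79.7 CPM in IL-17C+KO libraries and 69.9, 203 and 137 CPM in IL-17C+ libraries, with a log2 difference of -1.19 ± 0.54, which ran from -1.80 without mouse 2392 to -0.77 without mouse 2465. All 6 mevalonate genes, 9 of 10 squalene to cholesterol genes and all 4 genes of de novo synthesis had negative differences (all genes, 51.1%), with medians of -0.37, -0.22 and -0.68. For the sterol roles mouse 2465 alone lay below the IL-17C+ range. The mevalonate genes summed to 809 CPM in mouse 2465 and 1710.2 CPM in mouse 2392, against 1151 to 1956 CPM in IL-17C+ mice, and the squalene genes to 975 and 2148 CPM, against 1350.1 to 2408 CPM. The median over the 43 genes was -0.17 (all genes, -0.01), and it ran from -0.67 without mouse 2392 to 0.12 with other mice left out. The growth phase hair markers summed to 42.2 and 57.9 CPM in these IL-17C+KO libraries, against 34.1, 2375 and 11605 CPM in the IL-17C+ libraries, and their part in the result was not tested.

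**Figure D5:**
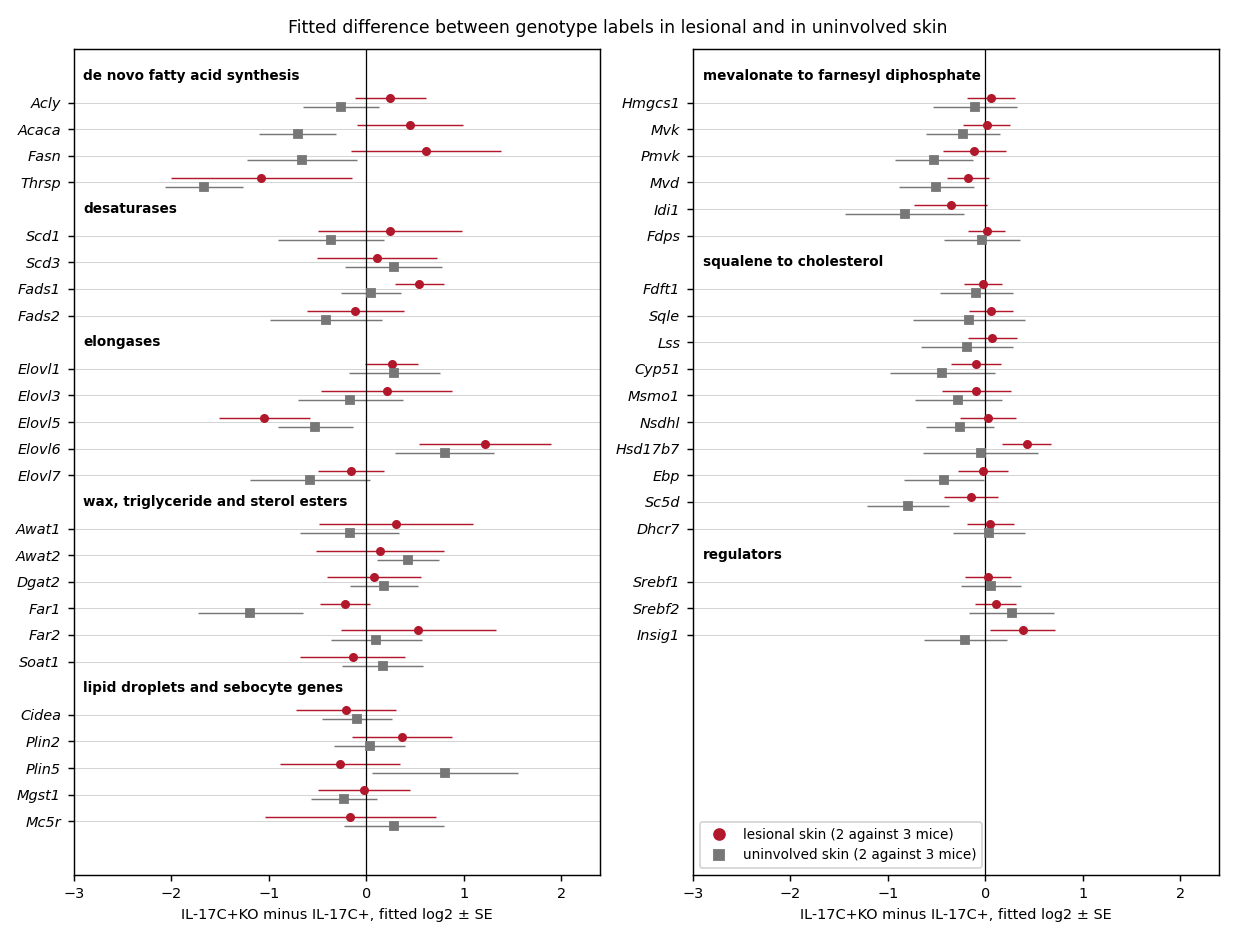
Log2 difference of IL-17C+KO from IL-17C+ skin for each of the 43 genes (rows, grouped by role) with its standard error as a bar, red circles for lesional and grey squares for uninvolved skin. No difference passed the threshold, and Thrsp in uninvolved skin (-1.66 ± 0.40) is the one farthest from 0 relative to its error.

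Pathway genes outside the 43 were looked at in the comparison of lesional with uninvolved skin over 5 mice. Of 17 other sterol pathway genes 9 had positive and 8 negative log2 changes (all genes, 50.6% negative), and 0 passed in either direction (all genes, 0.0497%). Mylip, a ligase that lowers the LDL receptor, had 27.7 and 21.8 CPM in lesional and 54.3 and 37.0 CPM in uninvolved IL-17C+KO skin, and 39.7, 34.3 and 42.8 CPM in lesional and 48.9, 40.4 and 47.1 CPM in uninvolved IL-17C+ skin. It was lower in lesional skin of 5 of 5 mice by TMM-scaled CPM, with a log2 change of -0.48 ± 0.18 (SE, 5 mice). By deposited FPKM Mylip was higher in lesional skin of mouse 2237 (14.6 against 14.1). Of 23 other fatty acid and glycerolipid genes tested, 4 were positive and 19 negative (all genes, 50.6% negative), and 0 passed (all genes, 0.0497%). At an unadjusted p under 0.05, 1 was higher (all genes, 10.1%) and 4 were lower (all genes, 11.5%). The 1 was Scd2, the desaturase most known from brain and young skin, with 444 and 419.8 CPM in lesional and 169 and 241 CPM in uninvolved IL-17C+KO skin, and 441, 361 and 482 CPM in lesional and 142, 332 and 216 CPM in uninvolved IL-17C+ skin. Scd2 was higher in lesional skin of 5 of 5 mice, all 5 lesional libraries lay above all 5 uninvolved ones, and its log2 change was 1.03 ± 0.25 (edgeR's quasi-likelihood adjusted p = 0.108). Mlxipl, a carbohydrate-responsive factor that drives lipid synthesis genes, had a log2 change of -1.80 ± 0.56 and was lower in 5 of 5 mice.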

How the data were processed

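Each library came with 1 table. Per the file headers, the deposited tables give a count and an FPKM value per gene symbol. The counts are whole numbers with a different total in each library and were taken as raw read counts, and the deposited FPKM values were scaled by the authors to transcript length and library size. The submitters' processing notes name cutadapt 1.6, TopHat2 2.0.12, Cufflinks 2.2.1, HTSeq with no version, and mm10. Neither the annotation nor the strand setting nor the treatment of multi-mapping reads is given there or in the headers, so genes with overlapping or pseudogene partners are uncertain (among the 43, Acaca, Fdft1, Fdps, Idi1, Hmgcs1 and Far2).

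The tests used edgeR 4.0.16 in R 4.3.3 (filterByExpr by group, TMM, robust quasi-likelihood F tests, Benjamini-Hochberg adjustment over all genes tested, threshold 0.05). The paired comparisons used all 10 libraries and a block for the mouse (with a single lesional effect, or with 1 per genotype), since each mouse gave both biopsies per the labels. As a check of this pairing, deviations from the group means correlated by -0.122 to 0.0338 between biopsies of the same mouse. These values lie near 0, so the check gave no sign that biopsies of a mouse were alike, and the pairing rests on the labels. Deviations in a group of 2 mirror each other, so both IL-17C+KO mice necessarily had the same value (-0.0723). Genotypes were compared within each skin type, with 1 library per mouse. Standard errors come from the log2 change and its F statistic, and per-mouse differences use log2 CPM (prior count 2). The tests were tried on simulated counts with known changes. Those counts had 1 fixed dispersion and no differences between mice, so they cannot show how the tests perform at the spread of these libraries. Each replicate is a different mouse, per the labels.

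DESeq2 1.42.0, limma 3.58.1 (voom, and log2 FPKM with pseudocounts of 1 and 0.1), DESeq2 size factors, library totals, no low-count filter, no block, other sets of libraries in 1 fit, and each mouse left out were tried as alternatives. Shares of all genes called by DESeq2 are over the genes tested, and those it gives no adjusted p count as not called. Values in every library are given for a gene that passes the threshold in any comparison, for the 2 genes per role with the smallest p over 5 mice, for the 1 per role with the smallest p in the difference of lesional changes and in each genotype comparison, and for the 1 with the highest mean FPKM. This gives 27 genes. Of pathway genes outside the 43, the 2 per list with the smallest p are named, except 1 that is not reported here. The 43 genes, the other lists and the motifs were chosen with earlier results of these data known. Gene coordinates are from GENCODE M21 (GRCm38). Promoter windows are from RefSeq (GRCm38.p6). All 10 libraries were used.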

Additional observations from a re-analysis of the deposited data

Results flagged for a closer look

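The lesional minus uninvolved difference of Cidea, which enlarges lipid droplets, was -1.08 log2 units in mouse 2465 (IL-17C+KO), against -0.19 in mouse 2392 and -0.32, -0.41 and -0.21 in the IL-17C+ mice 2275, 2296 and 2237. The gap between mouse 2465 and the nearest other mouse was 0.752 of the whole range of the 5 mice, above Dixon's 95% critical value of 0.71. It was 1 of 43 genes examined in this way, and chance passes about 1 in 20 groups.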

How the results depend on the processing

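None of the 43 genes passed in the paired comparison of 5 mice, and the same count was 3 with DESeq2 (Plin5, Scd3 and Thrsp) and 1 with no replicate block (Plin5, adjusted p = 0.0412 with edgeR's quasi-likelihood test). In IL-17C+KO mice DESeq2 gave 1 (Plin5) and the fit with no replicate block 0. In the paired comparison of 5 mice and in that of IL-17C+ mice, 0 of the 43 genes passed with single mice left out. No fitted log2 change or difference printed for a single gene turned its sign under the alternatives tried. Differences in single mice were not part of that check. They rest on TMM-scaled CPM, and some small ones turned sign by deposited FPKM, such as those of Dgat2 in mice 2392 and 2237. The block changed no other call among the 43. Over all genes the paired count of 8 was 2036 with DESeq2, 891 with no replicate block, 15 with no filter, 4 with limma-voom, 1249 without mouse 2237 and 0 without each of the others. The count of 2 in IL-17C+KO mice was 1140 with DESeq2, 5 with no filter, 1 with library totals, 0 without the block or with the 4 libraries alone, and 0 to 11 with single mice left out. The counts of 0 were 247 (IL-17C+ mice), 6 (difference), 217 (lesional genotypes) and 11 (uninvolved genotypes) with DESeq2, 1 in lesional skin with no filter, and 241 in uninvolved skin without mouse 2275. The cause was not tested. Scaling by library totals alone moved the median of all genes in the 5 mice to 0.10 log2 units, and log2(FPKM + 0.1) moved it to 0.12, and the median of the 43 genes lay between -0.16 and -0.02 over the alternatives that kept all mice. In IL-17C+KO mice that median was -0.04 and lay between -0.06 and 0.13 with all mice kept. It was -0.26 without mouse 2392 and 0.11 without mouse 2465, so its sign depends on the processing and on the mouse. With single mice left out, the paired change ran from -0.79 to -0.07 for Fasn, and without mouse 2465 it was -1.004 for Thrsp, -0.77 for Scd3, -0.31 for Elovl5 and -0.28 for Cidea. Precision is limited by the 2 and 3 mice per genotype, and for Plin5 and Mc5r also by low counts.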

Other observations

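The 2 stearoyl-CoA desaturases Scd1 and Scd3 did not keep 1 ratio. By deposited FPKM, Scd1 over Scd3 was 36.5 in lesional and 15.2 in uninvolved skin of mouse 2465, and 47.5 in lesional and 21.3 in uninvolved skin of mouse 2392 (both IL-17C+KO). In IL-17C+ mice it was 44.0 in lesional and 28.0 in uninvolved skin (mouse 2275), 34.8 in lesional and 25.0 in uninvolved skin (mouse 2296), and 44.6 in lesional and 36.9 in uninvolved skin (mouse 2237). The ratio was higher in lesional skin of 5 of 5 mice. It was looked at after the values of both genes had been seen, so it is a description without a test, and the 2 genes share part of their sequence.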
